A study of Mus musculus with 4 samples.

Results

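The genes examined encode the cofactors and chromatin enzymes through which nuclear receptors act on transcription. There were 53 of them among 21883 mouse protein-coding genes, taken from a list of names by function. No peak value enters the list, but it was drawn up with earlier results of these data known. They comprised 7 corepressor subunits, 13 deacetylases, 17 coactivators, 7 enzymes that add or remove histone methyl groups, 6 subunits of the SWI/SNF chromatin remodeller and 3 DNA methyltransferases. All 53 were matched by symbol to RefSeq genes on GRCm38.p6, the same coordinate system as mm10, which is the build named for the deposited files. A gene is called occupied where the summit of a wild-type SHP peak lay within 5 kb of either end of the gene. By that rule 30 of the 53 genes were occupied and 23 were not, where 26.4% of all protein-coding genes were occupied.

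SHP (small heterodimer partner, gene Nr0b2) is an orphan nuclear receptor without a DNA-binding domain. It is held on chromatin by other nuclear receptors and recruits corepressors there. Its described partners include histone deacetylases, the SIN3A scaffold, the histone H3 lysine 9 methyltransferase G9a (gene Ehmt2), the demethylase LSD1 (Kdm1a), the NCoR complex subunit GPS2 and the SWI/SNF ATPase BRM (Smarca2). Coactivators such as the NCOA family, CBP and p300 bind active receptors and acetylate histones, and SHP can displace them. These descriptions concern the proteins, mostly in liver and cultured cells, whereas the data below record where SHP was found near the genes that encode them.

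Chromatin immunoprecipitation and sequencing (ChIP-seq) with an SHP antibody was done on jejunum and ileum. The groups were SHP knockout mice (SHP-KO), in which the antigen is missing, and wild-type C57BL/6 mice (WT). Both were 8 to 12 weeks old and had a 12 h fast followed by 4 h of refeeding with chow, so no fasted group was compared. The labels describe 3 sets of immunoprecipitated and input DNA, each pooled from 3 mice, and 1 peak list was used for each genotype. The knockout list held 7 peaks and the wild-type list 5775. The lists were filtered differently, so peak numbers and peak values were not tested between genotypes, and with 1 list each there is no replicate error. Read depth is unknown. Peak lists hold no expression values, so the labelled tissue could not be checked against marker genes.

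No knockout summit lay within 5 kb or within 50 kb of any of the 53 genes. The closest was 1355298 bp away, near Ncoa5, and 33 of the genes lie on chromosomes with no knockout peak. A list of 7 peaks can say little about any single gene, and its lack of peaks at these genes does not show that the wild-type peaks there depend on SHP.

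The first 4 sequences are promoters of cofactor genes that held the summit of a wild-type peak inside them. Among summits within 5 kb of a gene end that fell in such a promoter, these 4 genes had the highest enrichment values. Inner promoters of Hdac7 (6.71) and Dnmt1 (6.55) also held a summit but lie farther from the ends of those genes, and they are described below without their sequence. The enrichment value is the deposited signal of each peak, whose scale is not stated. Each sequence runs 5′ to 3′ on the strand of the gene, from 250 bases before the transcription start to 50 bases after it, and comes from RefSeq promoters of GRCm38.p6. Capitals mark matches, on either strand, to any of 7 short motifs that are spelled out with their frequencies further down. No matches overlapped in these 4 promoters.
Ncoa4, chr14:32159637-32159936, plus strand: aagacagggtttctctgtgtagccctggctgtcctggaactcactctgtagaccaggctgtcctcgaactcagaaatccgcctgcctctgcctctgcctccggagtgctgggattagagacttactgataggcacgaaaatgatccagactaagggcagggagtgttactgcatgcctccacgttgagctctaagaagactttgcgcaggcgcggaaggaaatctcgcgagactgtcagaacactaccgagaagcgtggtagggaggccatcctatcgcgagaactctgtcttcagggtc
Sin3b, chr8:72723020-72723319, plus strand: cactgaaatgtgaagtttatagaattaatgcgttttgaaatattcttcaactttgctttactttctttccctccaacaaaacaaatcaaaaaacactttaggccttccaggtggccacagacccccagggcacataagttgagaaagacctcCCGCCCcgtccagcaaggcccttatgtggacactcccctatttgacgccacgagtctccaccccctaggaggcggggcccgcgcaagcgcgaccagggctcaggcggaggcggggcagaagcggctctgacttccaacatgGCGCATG
Ehmt2, chr17:34898224-34898523, plus strand: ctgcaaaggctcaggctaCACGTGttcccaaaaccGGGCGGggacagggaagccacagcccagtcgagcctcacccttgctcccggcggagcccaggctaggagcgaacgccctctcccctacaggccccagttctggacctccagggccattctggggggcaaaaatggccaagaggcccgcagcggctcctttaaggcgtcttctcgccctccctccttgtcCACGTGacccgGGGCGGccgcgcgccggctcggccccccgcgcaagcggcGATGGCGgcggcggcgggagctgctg
Hdac11, chr6:91156565-91156864, plus strand: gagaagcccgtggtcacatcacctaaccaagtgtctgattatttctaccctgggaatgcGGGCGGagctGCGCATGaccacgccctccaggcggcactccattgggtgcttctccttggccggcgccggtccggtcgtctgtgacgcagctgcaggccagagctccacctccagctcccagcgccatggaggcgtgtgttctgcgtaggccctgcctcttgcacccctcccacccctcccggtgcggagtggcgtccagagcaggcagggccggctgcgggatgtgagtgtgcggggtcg
In Ncoa4 the summit was 7 bases downstream of the start, at base 258 of the sequence, and none of the 7 motifs was found. In Sin3b it was 9 bases downstream, at base 260, with 2 motif matches. In Ehmt2 it was 63 bases upstream, at base 188, with 5 matches. In Hdac11 it was 5 bases downstream, at base 256, with 2 matches. The promoters differed in composition, with a G+C content of 54.7% in Ncoa4, 53.3% in Sin3b, 70.3% in Ehmt2 and 66.7% in Hdac11.

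Occupancy of the cofactor genes was 30 of 53 (56.6%, 95% exact interval 42.3 to 70.2), against 5777 of 21883 protein-coding genes (26.4%), or 2.14 times the share of all genes. The interval is Clopper-Pearson and covers counting error only. The 3 broad groups had nearly the same share. Corepressors and deacetylases together had 11 of 20 genes occupied (55%), coactivators 10 of 17 (58.8%), and the chromatin and DNA methylation enzymes with the SWI/SNF subunits 9 of 16 (56.2%). Finer roles spread more widely. Corepressor subunits had 6 of 7 (85.7%, 42.1 to 99.6), histone methylation enzymes 5 of 7 (71.4%, 29.0 to 96.3), SWI/SNF subunits 4 of 6 (66.7%, 22.3 to 95.7), deacetylases 5 of 13 (38.5%, 13.9 to 68.4) and DNA methyltransferases 0 of 3 (0%, 0 to 70.8). The intervals of the roles overlap one another, and differences between roles were not tested. Those of corepressor subunits, coactivators (32.9 to 81.6) and histone methylation enzymes lay wholly above the share of all genes. Those of deacetylases, SWI/SNF subunits and DNA methyltransferases included it. The roles were chosen with earlier results of these data known, and genes are not replicates. The placing of an interval is therefore no test, and does not sort the roles into enriched and not enriched.

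**Figure D1:**
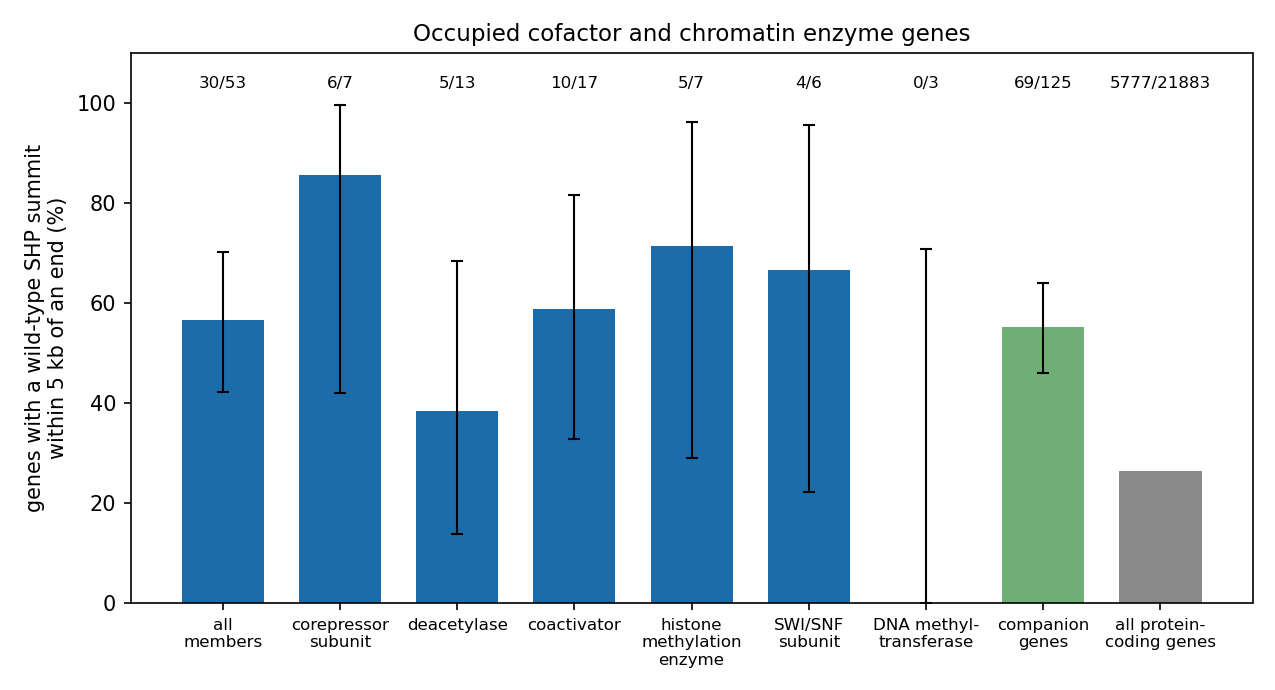
Share of genes (%) with a wild-type SHP summit within 5 kb of an end, for all 53 cofactor and chromatin enzyme genes, for each role, for 125 companion genes of the same pathways and for all 21883 protein-coding genes; black bars are 95% exact binomial intervals and the counts stand above. The cofactor genes (56.6%) and the companions (55.2%) stand together above all genes (26.4%), while the roles range from 0 of 3 to 6 of 7.

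Other genes of the same pathways had a similar share. A further list of 125 cofactor and chromatin genes had 69 occupied (55.2%, 46.0 to 64.1). It held other subunits of corepressor, Mediator, acetyltransferase, methyltransferase, Polycomb and remodelling complexes. Its chromatin remodelling subunits had 17 of 23, its corepressor complex subunits 18 of 29, its histone methylation genes 18 of 32, its coactivator complex subunits 12 of 27, its DNA methylation genes 3 of 9 and its further sirtuins 1 of 5. Most of the Mediator genes, counted among the coactivator complex subunits, had no summit within 5 kb. The highest values were at Sirt7, a nucleolar deacylase (8.27), Smarcd2, a SWI/SNF subunit (8.05), Suv39h1, a histone H3 lysine 9 methyltransferase (7.91), Kdm2a, a histone demethylase (7.57), Tet3, a DNA demethylation enzyme (7.28), and Kat6a, an acetyltransferase (7.19).

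The peaks at the cofactor genes were of ordinary strength. The highest value per occupied gene had a median of 6.04 over the 30 genes (interquartile range 5.38 to 6.92) and 5.73 over all 5777 occupied protein-coding genes (5.01 to 6.48). The 95% interval of the first median, from order statistics, was 5.50 to 6.79 and included the median of all occupied genes. In the top 25% of occupied genes lay 12 of the 30 (40.0%, 22.7 to 59.4), and above the median 19 of 30 (63.3%, 43.9 to 80.1), where all occupied genes have 25% and 50% by construction. The companion genes described above had 14 of 69 (20.3%) and 34 of 69 (49.3%), with a median value of 5.66. A gene with more summits has more values to take its highest from. Of the 30 genes 10 had 2 or more summits (33.3%), against 11.5% of all occupied genes. What this adds to the values was not tested. None of the 41 peaks was among the 100 strongest of the list, and the best ranked 113 of 5775. With so few peaks beside 5775, the lack of any in the top 100 says little about their strength. Values ran from 3.26 to 8.30, and peak width had a median of 1100 bp against 1010 bp for all occupied genes. Peaks of the list can share the same value and −log10 p. Hdac1 and Arid1a each had a peak with 5.59 and 19.7, and both ranked 3020. Small differences in rank between genes were not tested.

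**Figure D2:**
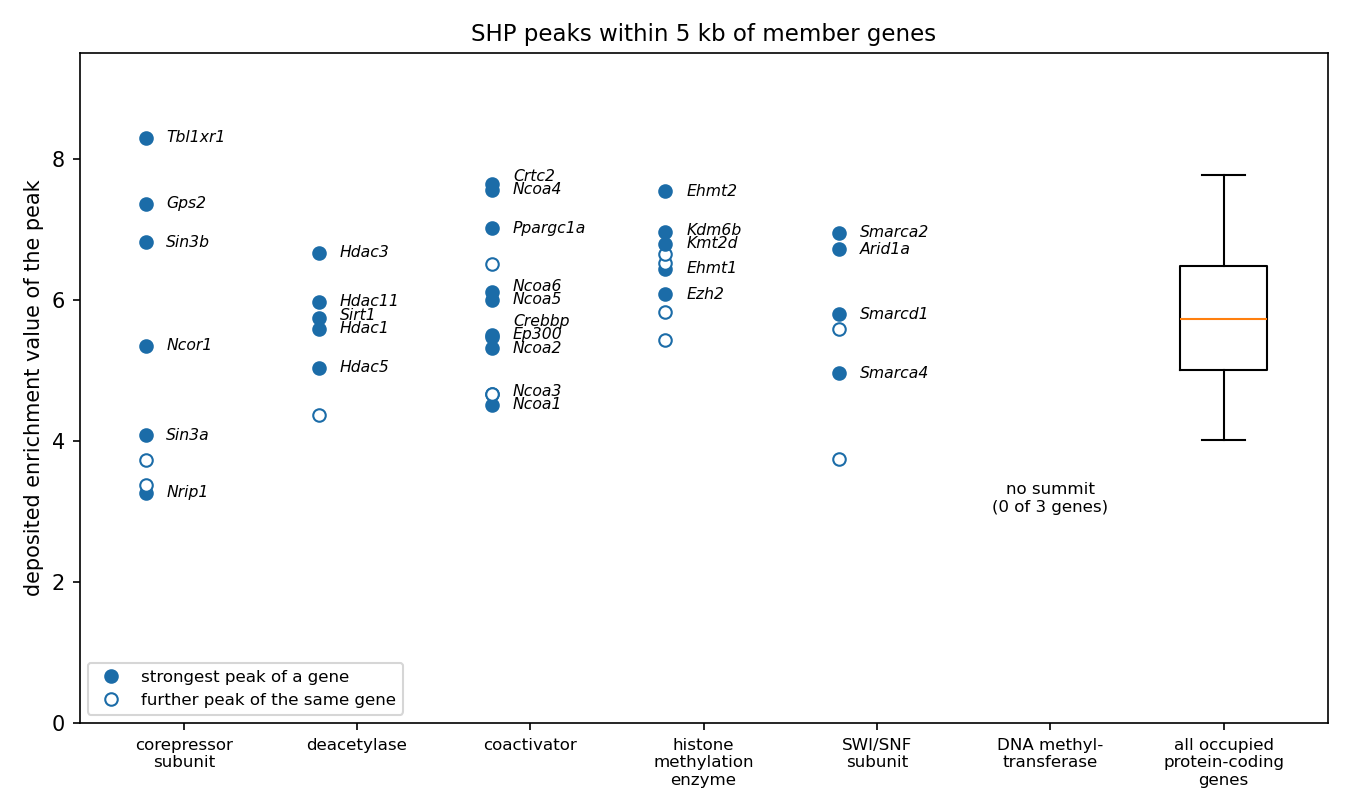
Deposited enrichment value of every wild-type SHP peak with its summit within 5 kb of a cofactor gene, by role; filled points are the strongest peak of each named gene and open points further peaks of the same genes. The box gives the median, the interquartile range and the 5th to 95th percentiles of the highest value of all 5777 occupied protein-coding genes. Tbl1xr1 (8.30) is highest, Nrip1 (3.26) is lowest, and the 3 DNA methyltransferase genes have no point.

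Corepressor subunits included both the strongest and the weakest occupied genes. The strongest peak was at Tbl1xr1, which encodes a WD-repeat subunit of the NCoR complex. It spanned chr3:22075523-22076294 (772 bp), with an enrichment value of 8.30 (rank 113) and a −log10 p of 21.5. Its summit lay 506 bases upstream of the nearest listed start, and a weaker second peak (3.73) had its summit 119 bases downstream of it. For Tbl1x, the X-linked paralog of Tbl1xr1, the nearest summit was 3423850 bp away. Gps2, which encodes a subunit of the same complex, had a value of 7.36 (rank 456, −log10 p 23.4) at chr11:69920215-69921985. That summit was 4214 bp beyond the 3′ end of Gps2 and only 688 bp from an end of Eif5a, a translation factor gene. Ncor1, the scaffold of the complex, had 5.35 at a summit 139 bases upstream of its start and a further summit of 3.38.

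Both SIN3 scaffold genes were occupied, at different strengths. Sin3b had a value of 6.82 (rank 889, −log10 p 17.4) at chr8:72723081-72724182, with the summit on the promoter printed above. Sin3a had 4.08 (rank 5308, −log10 p 10.4) at chr9:57076266-57077266. Its summit was 4849 bp from the end of the gene, the farthest inside the 5 kb limit, yet 464 bases downstream of a listed start. Nrip1, which encodes the ligand-dependent corepressor RIP140, had the lowest value of all occupied cofactor genes, 3.26 (rank 5675, −log10 p 9.09), at chr16:76372264-76373643. That summit was 11 bases upstream of a listed start, so a weak value did not go with a distant summit here.

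Among the deacetylases, 8 of 13 genes had no summit within 5 kb. These were Hdac2, Hdac4, Hdac6, Hdac7, Hdac8, Hdac9, Hdac10 and Sirt6. The occupied ones were Hdac3 (6.66), Hdac11 (5.96), Sirt1 (5.74), Hdac1 (5.59) and Hdac5 (5.04). Hdac3, the catalytic subunit of the NCoR complex, had its peak at chr18:37934850-37935715 (rank 1100, −log10 p 19.4). Its summit was 1387 bp outside the gene and 38 bp from an end of Diaph1, a formin gene. Hdac11, the class IV deacetylase, had its peak at chr6:91156621-91157348 (rank 2248, −log10 p 19.2).

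Hdac1 and Hdac2, which encode closely related class I enzymes of the SIN3 and NuRD complexes, differed. Hdac1 had a summit 25 bp inside one end, and the nearest summit to Hdac2 was 134306 bp away. Of the class IIa genes, whose products shuttle between nucleus and cytoplasm, Hdac5 had a summit 1 base downstream of its listed start, while Hdac4 and Hdac9 had none nearer than 387903 and 130379 bp. Sirt1, an NAD-dependent deacetylase, had a summit 85 bases downstream of its start. Sirt6, its chromatin-bound relative, had the nearest one at 15871 bp.

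The rule of gene ends missed peaks at inner starts of Hdac7 and Dnmt1. Hdac7, another class IIa gene, had 2 summits inside the gene but 12874 and 19367 bp from its ends. The first (6.71) was 133 bp from a listed start of Hdac7. The second, at chr15:97824887-97826328, had 8.97, above every value within 5 kb of an end of a cofactor gene, and was 6360 bp from the nearest listed start. Dnmt1, the maintenance DNA methyltransferase gene, had a summit (6.55, at chr9:20952204-20953145) 167 bp from a listed start and 7098 bp from the end of the gene, the closest miss of the 23 genes without a summit. The next closest were Dnmt3a (9460 bp) and Prmt1 (11036 bp). For Dnmt3b the nearest summit was 16739 bp away. Counting summits anywhere inside the gene gave 32 of 53 cofactor genes (60.4%), against 28.3% of all protein-coding genes.

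All 6 Ncoa genes of the examined list were occupied, as was the companion gene Ncoa7 (6.11). Ncoa4, which encodes an androgen receptor coactivator that is also the cargo receptor for the autophagy of ferritin, had the highest value of the family, 7.56 (rank 328, −log10 p 25.9), at chr14:32159685-32160535. Ncoa6 (6.11), Ncoa5 (6.00) and Ncoa2 (5.32) followed. Ncoa3 (4.66) and Ncoa1 (4.51, rank 4913, −log10 p 11.6, at chr12:4476004-4477659) were lowest, with summits 84 and 124 bp inside an end of the gene. Ncoa1, Ncoa2 and Ncoa3 encode the p160 coactivators, which bind receptors directly, and all 3 of their values lay below the median of occupied genes. At Ncoa5 the strongest summit was nearer to Slc12a5 (2227 bp) than to Ncoa5 (2849 bp), and its own start had a second peak of 4.67. Ncoa4 had a further summit (5.10) inside the gene, 5958 bp from an end and 48 bp from another listed start.

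Of the 3 Crtc genes, whose products are coactivators of CREB, Crtc2 was occupied and Crtc1 and Crtc3 were not. Crtc2 had the highest value of the coactivators, 7.65 (rank 298, −log10 p 25.6), at chr3:90264920-90266001. That summit was 1367 bp outside Crtc2 and 472 bp from an end of Dennd4b, and a second summit of 6.50 lay 539 bp inside the other end of Crtc2. The nearest summits to Crtc1 and Crtc3 were 29042 and 51538 bp away. Ppargc1a, the gene of the coactivator PGC-1α, had 7.02 (rank 722, −log10 p 18.8) at chr5:52115324-52116328. This summit was 202 bp outside the end of the annotated gene, which spans 661605 bp, and 548330 bp upstream of the only start listed in the promoter table. Its paralog Ppargc1b had no summit nearer than 80053 bp.

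Of the acetyltransferase genes, Ep300 and Crebbp were occupied by the 5 kb rule and Kat2a and Kat2b were not. Ep300 (5.48) had a summit 486 bases upstream of its start. Crebbp, its paralog, had 5.50 at a summit 3637 bp beyond its 3′ end and 143 bp from an end of Trap1, and its own listed start had no summit within 1 kb. Kat2a and Kat2b, which encode the GCN5 and PCAF acetyltransferases, had none nearer than 138005 and 16723 bp. The arginine methyltransferase genes Carm1 and Prmt1, whose products act with the p160 coactivators, had none nearer than 26845 and 11036 bp.

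Histone methylation enzymes had the highest median value of the 5 roles with peaks, 6.79 over 5 genes. The companion histone methylation genes did not share this, with a median of 5.88 over 18 occupied genes, against 5.73 over all occupied genes. Ehmt2, Kdm6b and Kmt2d each took the highest of several summits. Ehmt2, which encodes the SHP partner G9a, had 3 summits within 5 kb, the most of any cofactor gene. The strongest had 7.54 (rank 346, −log10 p 18.5) at chr17:34899029-34899960 and lay 850 bases downstream of a listed start. The second (6.64) is the one on the printed promoter, and the third (5.43) was 121 bp from an end of Zbtb12. Ehmt1, the gene of the G9a partner GLP, had 6.44 at a summit 161 bases downstream of its start. Kdm6b, which encodes a histone H3 lysine 27 demethylase, had 6.96 (rank 752, −log10 p 16.4) at chr11:69400710-69401877 and a further summit of 5.83 that was 121 bp from an end of Naa38.

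Kmt2d, an enhancer-associated H3 lysine 4 methyltransferase gene, had 6.79 (rank 930, −log10 p 18.8) at chr15:98870589-98872585, 925 bases upstream of its start. Its second summit (6.52) was 142 bp from an end of the neighbour Prkag1. Ezh2, the Polycomb methyltransferase gene, had 6.08 at 287 bases upstream of its start. Kdm1a, which encodes the SHP partner LSD1, had no summit nearer than 34770 bp, and Kdm6a, on the X chromosome, had none nearer than 2408527 bp.

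Both alternative ATPases of SWI/SNF were occupied. Smarca2 had 6.95 (rank 760, −log10 p 17.3) at chr19:26604510-26607768, and this peak was the widest of the cofactor genes at 3259 bp, with the summit 2347 bases downstream of the start. Smarca4, the gene of BRG1, had 4.96 at a summit 143 bases downstream of its start. Arid1a, which encodes a DNA-binding subunit, had 6.72 (rank 1046, −log10 p 18.1) at chr4:133751901-133753963, with the summit 985 bases downstream of a listed start. Its second peak (5.59) had the summit 424 bases upstream of that start. Smarcd1 had 5.80 and 3.74, of which only the weaker was at its own start (49 bases downstream). The core subunit genes Smarcb1 and Smarcc1 had no summit nearer than 29574 and 14497 bp.

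Where a transcription start was listed, most summits lay close to it. Starts were listed for 44 of the 53 genes and 24 of the 30 occupied ones. Of 32 summits at those genes, 22 lay within 1 kb of a start, 14 of them downstream and 8 upstream. The matching share of summits was not counted over all genes. By gene ends, closeness was not particular to the cofactor genes. Their strongest summit lay a median of 363 bp from an end, against 270 bp over all occupied protein-coding genes. A summit within 1 kb of an end was found at 22 of the 30 occupied cofactor genes, against 4525 of 5777. Counted by starts instead of gene ends, 21 of 44 cofactor genes (47.7%, 32.5 to 63.3) had a summit within 1 kb, against 22.1% of 17491 protein-coding genes with a listed start. Within 1 kb of either gene end the share was 22 of 53 (41.5%, 28.1 to 55.9), against 20.7% of all genes. Within 50 kb it was 44 of 53 (83.0%), against 48.2%. With the strongest peaks only, at or above the 75th percentile of the enrichment value, it was 12 of 53 (22.6%) within 5 kb, against 6.89%.

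**Figure D3:**
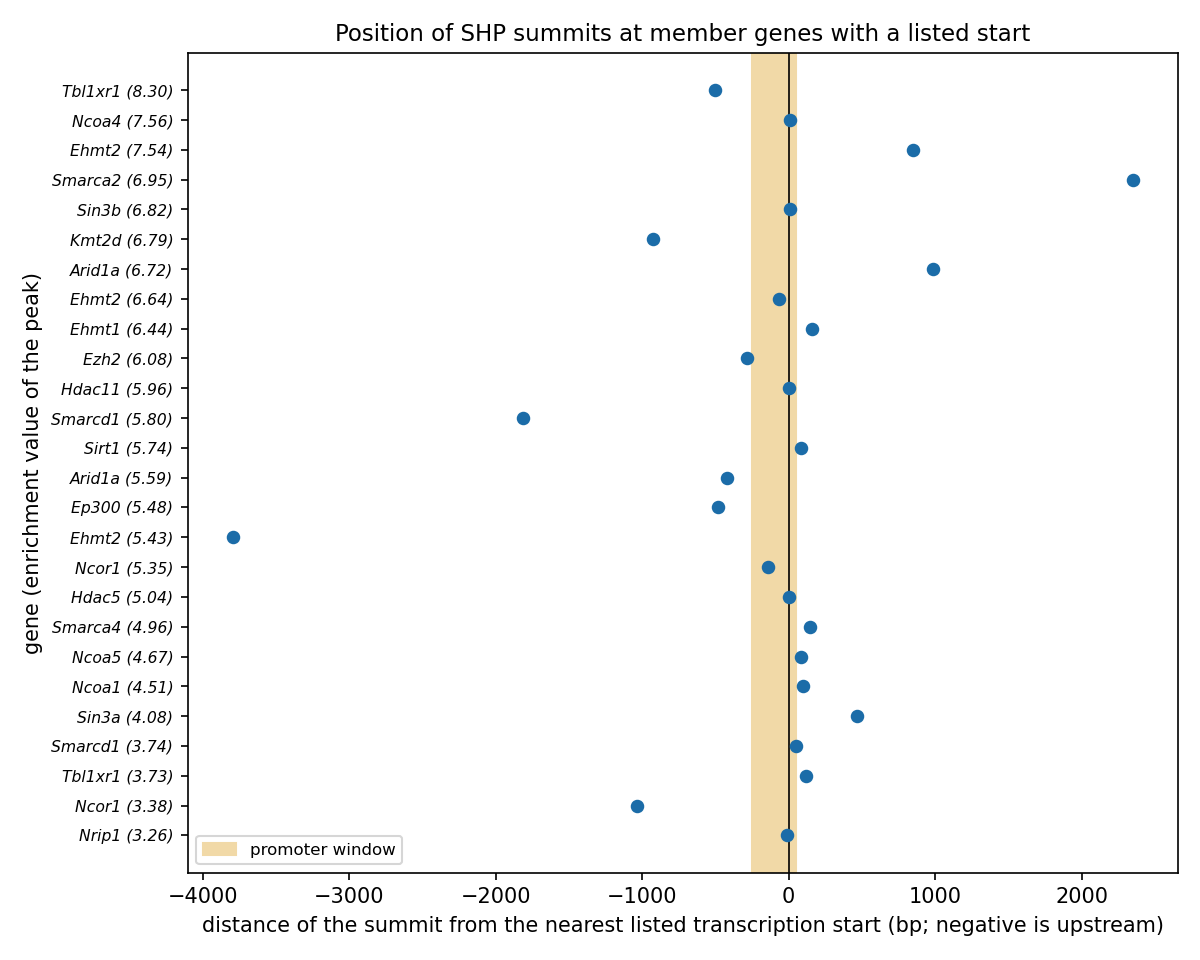
Distance in bp of each wild-type SHP summit from the nearest listed transcription start of the cofactor gene, for summits within 5 kb of such a start, ordered from the highest enrichment value at the top (values in parentheses); the shaded band is the promoter window of 250 bases before to 50 after the start. Most points sit within 1 kb of the start, and strong peaks such as Tbl1xr1 (8.30) and weak ones such as Nrip1 (3.26) both occur there.

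Several of these peaks could equally belong to a neighbour. The strongest summit was nearer to another protein-coding gene at 6 of the 30 occupied genes (20%, 7.71 to 38.6), against 23.2% of all occupied genes. The genes were Crtc2, Gps2, Hdac3, Ncoa5, Smarcd1 and Crebbp. For Gps2, Hdac3 and Crebbp every summit within 5 kb was nearer to the neighbour, and 27 of 53 cofactor genes (50.9%) were left when each summit counted for its nearest gene only, against 21% of all genes. On the other hand, 10 of the 30 occupied genes (33.3%, 17.3 to 52.8) had 2 or more summits, against 11.5% of all occupied genes and 9 of 69 companions (13.0%, 6.14 to 23.3). Of the 41 summits at cofactor genes, 11 were nearer to another gene. With each summit counted for its nearest gene only, 3 of 27 cofactor genes had 2 or more (11.1%, 2.35 to 29.2), against 5.64% of all genes with a summit.

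The X chromosome had few peaks, and its 4 cofactor genes, Hdac6, Hdac8, Kdm6a and Tbl1x, were all without a summit. Only 36 of 5775 peaks were on X, and 1.97% of its 966 protein-coding genes were occupied. Among autosomal genes the occupied share was 30 of 49 (61.2%, 46.2 to 74.8), against 27.9% of all autosomal genes. By gene length, cofactor genes over 50 kb had 16 of 30 occupied (53.3%, 34.3 to 71.7), against 30.8% of all such genes. Shorter ones had 14 of 23 (60.9%, 38.5 to 80.3), against 25.1%. The companions had the opposite order, with 65.4% of the longer and 47.9% of the shorter genes occupied.

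Promoter composition differed with a summit within 1 kb of the start, in the whole list as well as in the cofactor genes. The 44 cofactor genes with a listed start had 61 promoters, some genes having several. The 27 promoters with a summit within 1 kb had a median G+C content of 70.3% (interquartile range 62.5 to 72.8), and the 34 without had 61% (50.3 to 69.2). Split by the 5 kb rule instead, the medians were closer and the ranges nearly the same. They were 66.7% (55.7 to 72.3) over 31 promoters of occupied genes and 61.7% (55.2 to 71.2) over 30 others. Over all protein-coding genes the medians were 65.7% over 4475 promoters with a summit and 53.7% over 16787 without. Among promoters at or above the overall median of 56.3%, 23 of 45 cofactor promoters had a summit (51.1%, 35.8 to 66.3), against 35.8% of all such promoters, which is the lower bound of the interval. Below it the shares were 4 of 16 (25%, 7.27 to 52.4), against 5.7%. The difference from all genes was thus smaller in ratio among G+C-rich promoters, where most cofactor promoters lie, than over all promoters (44.3% against 21%). The 45 and 16 cofactor promoters came from 37 and 13 genes. Promoters of the same gene can share a summit, so the intervals of these promoter shares may be too narrow. The part of G+C content in the occupancy of the cofactor genes was not tested.

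**Figure D4:**
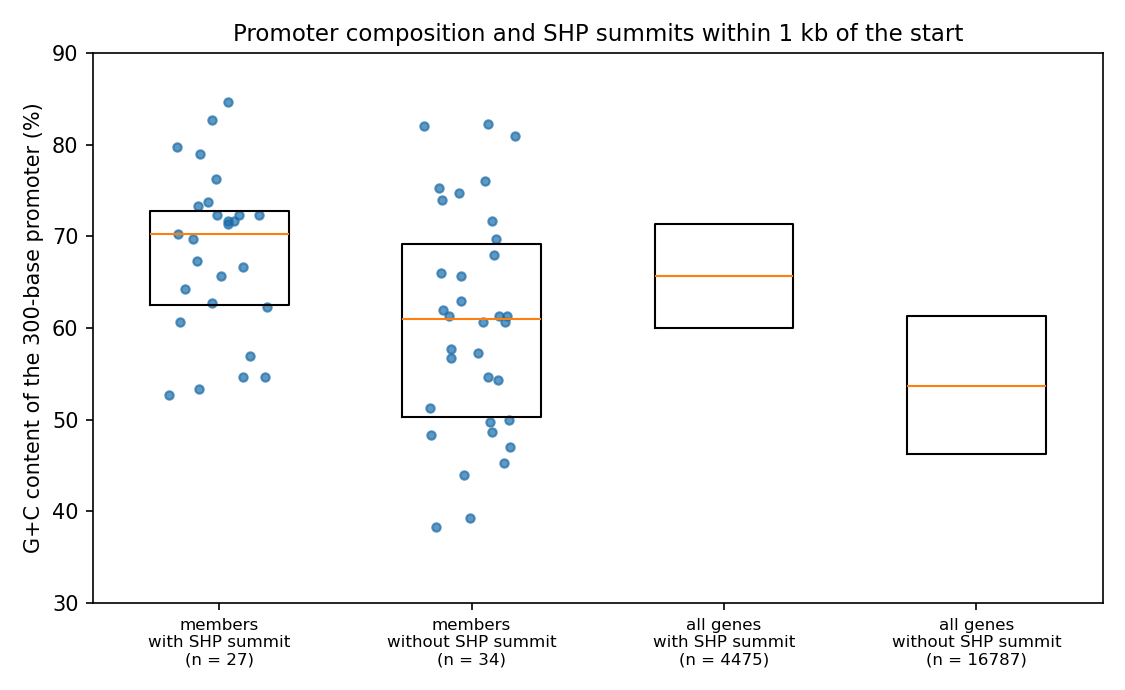
G+C content (%) of 300-base promoters of the cofactor genes and of all protein-coding genes, with and without a wild-type SHP summit within 1 kb of the start; boxes give the median and the interquartile range and points are single promoters of cofactor genes. Promoters with a summit have the higher median in both sets, 70.3% against 61% and 65.7% against 53.7%.

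The 7 motifs were searched on both strands of the 300-base promoters. GGGCGG, bound by Sp and KLF factors, was in 21 of 27 cofactor promoters with a summit within 1 kb (77.8%) and 18 of 34 without (52.9%), against 76.2% and 38.2% of all promoters with and without a summit, and 46.2% of all promoters. GATGGCG, the core of the YY1 site, was in 6 of 27 (22.2%) and 1 of 34 (2.94%), against 7.22% and 3.51% of all promoters with and without a summit, and 4.29% overall. The 6 genes were Ehmt1, Ehmt2, Ep300, Ezh2, Ncor1 and Smarcd1. GCGCATG, the core of the NRF1 site, was in 5 of 27 (18.5%) and 3 of 34 (8.82%), against 7.73% and 4.02% of all promoters with and without a summit, and 4.8% overall. Split by the 5 kb rule for genes, GCGCATG was in 3 of 31 promoters of occupied genes (9.68%) and 5 of 30 others (16.7%). This is the opposite order. The 5 promoters with a summit came from 4 genes, Dnmt1, Hdac11, Sin3b and Smarca4. The extra promoter is of Dnmt1, whose promoters count among the others by the 5 kb rule. CACGTG, the E-box, was in 4 of 27 (14.8%) and 3 of 34 (8.82%), against 11.4% and 6.89% of all promoters with and without a summit, and 7.84% overall.

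The remaining motifs were in at most 4 of the cofactor promoters of either kind. CCGGAAG, of ETS factors, was in 1 of 27 (3.70%) and 4 of 34 (11.8%), against 18% and 9.83% of all promoters with and without a summit, and 11.6% overall. By the 5 kb rule its order also reversed, with 3 of 31 promoters of occupied genes (9.68%) and 2 of 30 others (6.67%). The motifs other than CCGGAAG and GCGCATG kept their order under that rule. TGACGTC, of CREB factors, was in 1 of 27 (3.70%) and 0 of 34, against 6.35% and 3.18%, and 3.84% overall. AAGGTCA, which nuclear receptors such as the SHP partner LRH-1 (gene Nr5a2) bind, was in 0 of 27 and 1 of 34 (2.94%), against 2.37% and 4.53% of all promoters with and without a summit, and 4.08% overall. With 27 and 34 promoters these are counts of letters only, and no test was made on them.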

How the data were processed

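SHP ChIP-seq of jejunum and ileum was given as 1 peak list per genotype. The submitters' processing notes name CASAVA 1.4, BWA and mm10. Which peak caller and control were used, and whether the 3 sets were pooled, is not given in the sources used here. The lists have no header and follow the narrowPeak layout, and their names give an irreproducible discovery rate of 0.05 for the wild-type list and overlapping peaks for the knockout list. The deposited signal (column 7) is called the enrichment value. The deposited −log10 p was used to describe and filter peaks, and the deposited score was not used.

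Summits were converted to 1-based positions and set against 21883 RefSeq protein-coding genes of GRCm38.p6 on chromosomes 1 to 19, X and Y. Each gene took the highest value among its summits within 5 kb. Transcription starts and strands came from the RefSeq promoter table and were listed for 44 of 53 genes. The members, roles, companion list and motifs were chosen with earlier results of these data known, so their occupancy is no independent evidence. Named genes are all 53 members, with full values for the 12 highest, the 3 lowest and the 2 highest of each role. The length, G+C, X chromosome and start-based counts were chosen after the data were seen. Peaks and genes are not replicates, and no test was made. Shares carry exact binomial intervals from scipy 1.17.1 (Python 3.11.15), which cover counting error only. The occupancy code was checked on simulated data. The input samples were not analysed here.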

Additional observations from a re-analysis of the deposited data

How the results depend on the processing

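With 1 list per genotype no replicate could be left out. No paired analysis was possible because no result comes from a test and each group has a single replicate. Of the 66 values recomputed, 52 kept within 1.5 times the main count or inside the interval of the median, and 14 moved. Occupied cofactor genes numbered 22 within 1 kb, 44 within 50 kb, 27 by nearest gene only, 23 with the peaks whose −log10 p was at least the median, 30 by peak interval and 32 with summits inside the gene, against 30. The share stayed above that of all genes in each of these 6 and in the 2 added after the data were seen, autosomal genes only and summits within 1 kb of a listed start.

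The largest move came from keeping peaks at or above the 75th percentile of the enrichment value, which by construction keeps about 25% of peaks. There 12 cofactor genes (22.6%, against 6.89% of all genes) and 15 companions were occupied, and the median value was 6.99, just under the 7.05 of all genes, which is the reverse of the order at all peaks. By role that left 3 corepressor subunits, 1 deacetylase, 3 coactivators, 3 histone methylation enzymes and 2 SWI/SNF subunits. With a −log10 p of at least the median, 42 companions and 6 coactivators were left. Within 1 kb 2 SWI/SNF subunits were left. Within 50 kb 9 deacetylases and all 3 DNA methyltransferases had a summit, and with summits inside the gene 1 DNA methyltransferase did. Read depth is unknown, so genes without a summit may hold signal too weak for the list.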
